A study of Mus musculus with 16 samples.

Results

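Of the genes that direct dendritic cell (DC) development, 10 transcription factors were followed across splenic DCs with and without Trim33: Zbtb46, Zfp366, Batf3, Nfil3, Bcl6, Bcl11a, Klf4, Zeb1, Zeb2 and Rbpj. They were chosen by name as lineage factors and make up 10 of the 18232 genes listed in either expression table. All 10 were listed in both tables. The cells were sorted from spleens of mice 6 to 8 weeks old on a C57BL/6 background. The WT mice were Trim33 fl/fl without Cre and the conditional knockout (cKO) mice were Trim33 fl/fl Itgax-Cre, so that every group carried the floxed alleles and the only labelled difference was the Cre transgene. Itgax encodes CD11c, and Cre driven by it acts in CD11c-expressing cells, which include DCs of all 3 subsets sorted here and can include some other myeloid cells. The subsets were plasmacytoid DCs (pDCs, 3 WT and 3 cKO libraries), type 1 conventional DCs (cDC1s, 2 and 2) and type 2 conventional DCs (cDC2s, 3 and 3). Each library was made from cells pooled from several mice, with more mice per cKO library than per WT library, so p-values measure the spread between pools. Levels are in TPM, a unit scaled by transcript length and by the total of each library.

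DC subsets are set apart by small sets of transcription factors that act in a branching hierarchy of progenitors. Several of them work as opposing pairs, in which a repressor of one fate silences the activators of another, and ZEB2, for instance, restrains the cDC1 programme while favouring pDCs. Others respond to signals from the tissue, such as RBPJ, through which Notch ligands of the spleen act on cDC2s.

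Trim33 itself was lower in every cKO library than in every WT library of the same subset. The WT and cKO means were 22.3 ± 1.62 and 13.6 ± 2.53 TPM in pDCs (SD, n = 3 each), a log2 difference of −0.68 with an adjusted p of 0.0301 in limma. For cDC1s the means were 16.8 ± 1.92 and 7.80 ± 0.120 TPM with 2 libraries each (log2 difference −1.02, adjusted p 3.49e-04). In cDC2s they were 18.7 ± 1.77 and 7.71 ± 0.507 TPM (SD, n = 3 each; −1.17, adjusted p 1.26e-04). These are gene-level values, which also count exons outside the deleted stretch. Depth estimated from the spacing of low values was 17.5 to 20.7 M reads per library. Marker genes followed the sorted labels, with 12 pDC genes at a sum of 23780 to 26478 TPM in pDC libraries and 207 to 384 TPM in cDC libraries, 11 cDC1 genes at 4974 to 5147 TPM in cDC1s and 355 to 552 TPM elsewhere (Itgae, Cadm1 and Clec9a were called lower in cKO than in WT cDC1s), and 12 cDC2 genes at 2213 to 2522 TPM in cDC2s and 283 to 335 TPM in cDC1s. The cDC2 list was also high in pDCs (2597 to 2866 TPM). Its genes changed within cDC2s although the sum did not: 7 of 12 were called between genotypes there (58.3%, beside 7.15% of all genes). Of these 5 were higher and 2 lower in cKO cDC2s. The largest changes were in Cx3cr1 (16.7 to 52.8 TPM) and Clec10a (13.7 to 42.7 TPM), which rose, and Cd4 (312 to 120 TPM) and Esam (52.5 to 22.6 TPM), which fell. The pDC list was higher in sum in cKO than in WT cDCs. It summed to 354 and 356 against 207 and 218 TPM in cDC1s and to 313 to 384 against 238 to 289 TPM in cDC2s. In cKO cDC1s 4 of the pDC genes were called higher (Cox6a2, Ly6c2, Tcf4 and Bst2) and 2 lower (Pacsin1 and Ccr9). In cKO cDC2s and in cKO pDCs Cox6a2 was the 1 pDC gene called, and it was higher. Markers of neutrophils (at most 139 TPM), B cells (138), T cells (87.5), NK cells (113) and platelets (8.12) stayed low in sum in every library. Some of these sums were higher in cKO than in WT libraries without overlap, namely T cells in pDCs (59.6 to 87.5 against 29.2 to 40.1 TPM, Thy1 called higher), T cells in cDC1s (7.78 and 8.05 against 5.95 and 6.51 TPM), neutrophils in pDCs (30.3 to 139 against 9.07 to 29.7 TPM) and cDC1s (23.1 and 43.0 against 1.88 and 17.4 TPM), and NK cells in cDC1s (100.5 and 113 against 47.7 and 61.1 TPM) and cDC2s (58.0 to 66.3 against 23.3 to 40.4 TPM). Few genes made up these sums. Of the 8 NK genes, 7 in cKO cDC1s and 6 in each other cDC group stayed below 1 TPM in every library. Klrk1 was the 1 NK gene called higher in both cDC subsets. Of the 8 T cell genes listed, 7 stayed below 1 TPM in cDC1s, and Cd3d, Cd3e, Cd3g and Bcl11b did so in pDCs. Erythroid genes varied from 385 TPM in WT cDC1 library 2 to 10738 TPM in WT cDC2 library 2. Monocyte and macrophage genes summed to 744 to 989 TPM in cDC1s, to 5905 to 7107 TPM in pDCs, where Ly6c2, also on the pDC list, averaged 5013 TPM in WT and 5635 TPM in cKO cells, and in cDC2s to 1915 to 2357 TPM in WT and 3261 to 4209 TPM in cKO libraries, where 4 of 14 were called higher. In cKO cDC1s 3 of these 14 (Ccr2, Ly6c2 and Csf1r) were called higher and 1 (Spic) lower. The part of these other cell types in the values of the 10 factors was not tested.

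**Figure D1:**
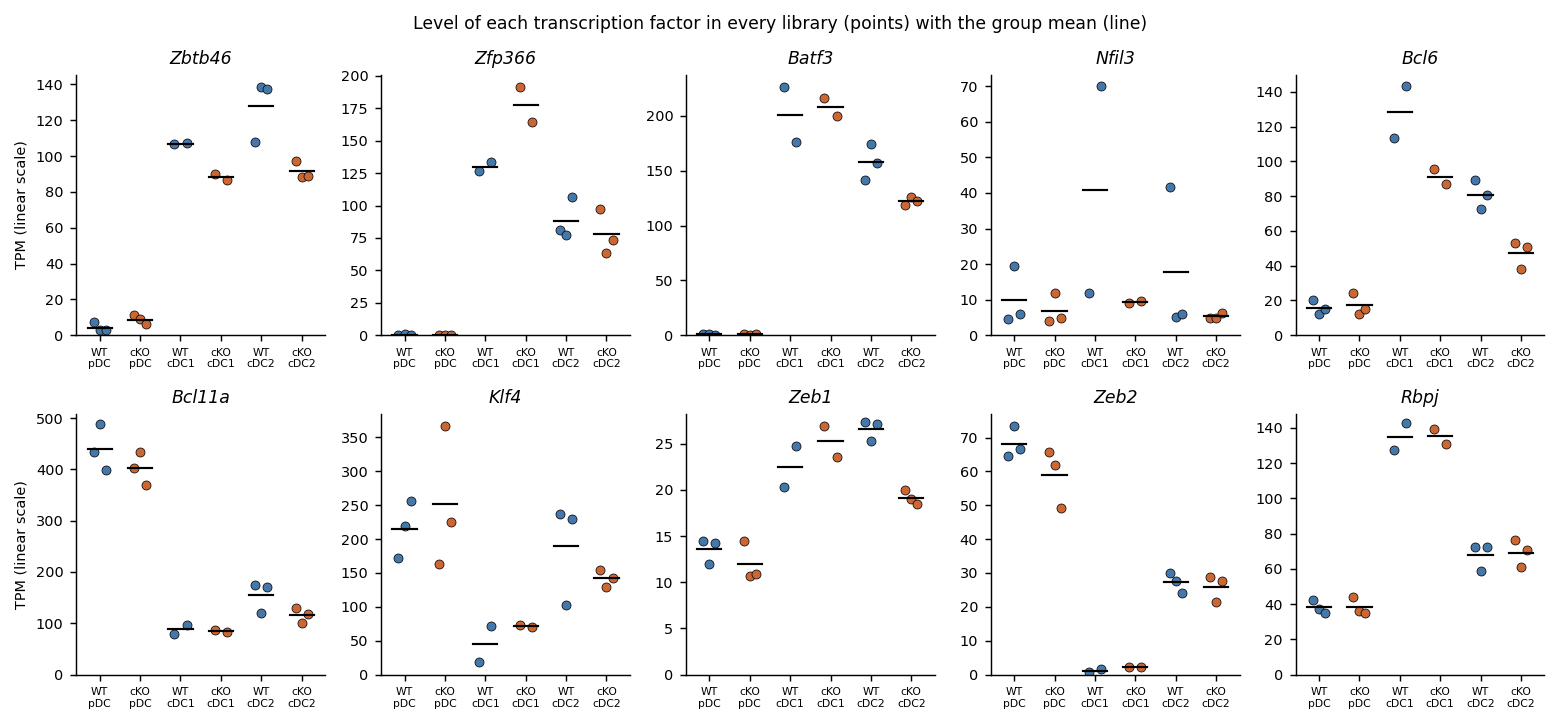
TPM of each of the 10 transcription factors (linear axes from 0, 1 panel per gene) in every library (points; blue WT, orange cKO) of pDCs, cDC1s and cDC2s, with the group mean as a line. Zbtb46, Zfp366 and Batf3 are near the bottom in pDCs, Zeb2 is near the bottom in cDC1s, and Nfil3 has 1 high library in each WT cDC group.

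More of the 10 factors were called between the cDC subsets than between the genotypes of any subset. The share of all genes called was also largest between the subsets (31.7%), beside 22.4% between genotypes in cDC1s, 7.15% in cDC2s and 1.05% in pDCs. Among WT cells, Bcl11a, Klf4 and Zeb2 had their highest mean in pDCs, Zfp366, Batf3, Nfil3, Bcl6 and Rbpj in cDC1s, and Zbtb46 and Zeb1 in cDC2s. The pDC and cDC values come from tables normalized over different genes, so levels in pDCs and cDCs are set side by side here and not tested. Between WT cDC1s and WT cDC2s, 5 of the 10 factors were called, against 31.7% of the 11411 genes tested in cDCs. A gene was called where its adjusted p in limma did not exceed 0.01 and it differed by 0.5 or more on the log2 scale in either direction. Rbpj and Bcl6 were higher in WT cDC1s (2 of 10, beside 10.9% of all genes), and Zeb2, Klf4 and Bcl11a were higher in WT cDC2s (3 of 10, beside 20.8%). At an unadjusted p under 0.05 there were 7 of 10 factors and 55.2% of all genes. The libraries of the 2 WT groups did not overlap for 9 of the 10 factors (4 higher and 5 lower in cDC1s), beside 62.3% of all genes tested (20.8% higher and 41.5% lower). The median gene was lower in cDC1s by −0.17 on the log2 scale, and scaling by the median of ratios brought it to 0.01. With that scaling 6 factors were called, 4 higher and 2 lower, beside 31% of all genes. Zfp366 and Batf3 gained the call and Bcl11a lost it.

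Deletion of Trim33 left most of these factors without a called change. In cKO pDCs 0 of the 8 factors tested were called with limma, where 1.05% of all genes tested were called (119 genes, or 335 with the replicate block), and 1 of them had an unadjusted p under 0.05, beside 20.8% of all genes. Zfp366 and Batf3 lay below a mean of 1 TPM over the pDC libraries and were not tested there. Trim33 itself was not called in pDCs (log2 difference −0.68, adjusted p 0.0301 in limma). Its cKO mean was 61.2% of WT there, beside 46.3% in cDC1s and 41.3% in cDC2s. The count of 0 in pDCs therefore does not show that no factor changed. In cKO cDC1s 0 of 10 were called with limma, against 22.4% of all genes, and 2 of 10 had an unadjusted p under 0.05, beside 48.6%. In cKO cDC2s 1 of 10 was called, against 7.15% of all genes: Bcl6 fell, and 5 of 10 had an unadjusted p under 0.05, beside 34.1%. Every fold change in cDC2s but that of Rbpj was below 0, with a median over the factors of −0.38 beside −0.03 over all genes, and 4 factors had every cKO library under every WT library, beside 19.2% of all genes. The other 6 overlapped, whereas 35.5% of all genes did not overlap in either direction. In cDC1s 2 factors had every cKO library above and 3 every cKO library under the WT libraries, beside 52.1% and 24.1% of all genes (76.2% together), and the median was 0.03 beside 0.17. The cKO and WT pDC libraries overlapped for all 10 factors, whereas 27.5% of all genes did not overlap. In bulk RNA of a sorted subset, fewer cells with a transcript and less transcript per cell cannot be told apart.

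**Figure D2:**
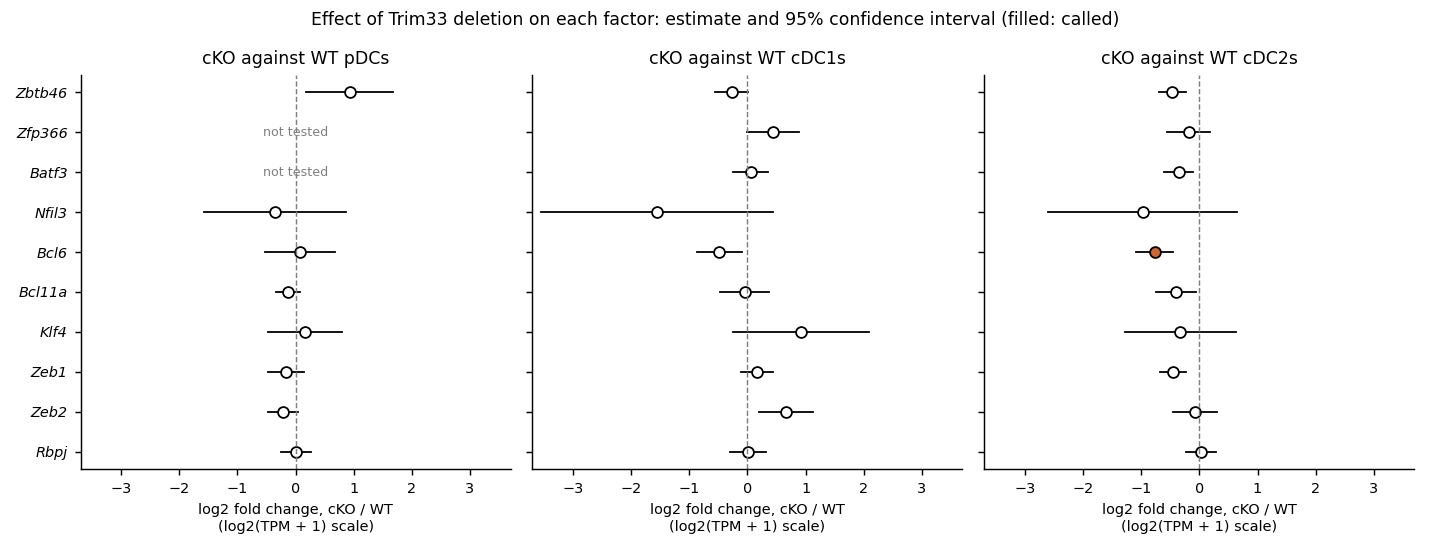
Log2 fold change of cKO over WT on the log2(TPM + 1) scale (horizontal axes) for each factor in pDCs, cDC1s and cDC2s, with 95% confidence intervals as lines. Bcl6 in cDC2s (−0.77) is the filled, called point, the intervals of Nfil3 and Klf4 are wide, and Rbpj sits at 0.00, 0.00 and 0.03.

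Zbtb46 (gene ID 72147, GRCm38.p6 chromosome 2, 181371009 to 181493262) encodes a BTB zinc finger protein that marks conventional DCs and their committed progenitors. Its level was 107 and 107 TPM in the WT cDC1 libraries and 89.9 and 86.7 TPM in the cKO cDC1 libraries. In cDC2s it was 108, 139 and 137 TPM in WT and 97.4, 88.5 and 88.8 TPM in cKO libraries. It was far lower in pDCs, at 7.16, 2.73 and 3.00 TPM in WT and 11.3, 8.85 and 6.05 TPM in cKO libraries. Every cKO cDC library of either subset therefore lay below every WT library, whereas the pDC groups overlapped by WT library 1. Within each same-numbered pair of pDC libraries the cKO value was the higher. The log2 fold change was −0.47 in cDC2s (SE 0.10, 95% interval −0.70 to −0.24, adjusted p 0.0120), just short of both limits of a call, −0.27 in cDC1s (SE 0.13, adjusted p 0.115) and 0.94 in pDCs (SE 0.32, 95% interval 0.19 to 1.68, adjusted p 0.157, all in limma). Without WT cDC2 library 1, the WT library with the lowest Zbtb46, the cDC2 value was −0.59 (adjusted p 0.00300) and was called. Over 13 alternative fits the pDC value ran from 0.73 to 1.29 (adjusted p in limma 0.0118 to 0.398). It was called in 0 of them, which include the replicate block that pairs the pDC libraries.

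Zfp366 (gene ID 238803, chromosome 13, 99184823 to 99247032) encodes DC-SCRIPT, a zinc finger factor of conventional DCs. It was 127 and 133 TPM in WT and 191 and 164 TPM in cKO cDC1s, with no overlap between the genotypes. In cDC2s it was 80.9, 77.4 and 107 TPM in WT and 97.2, 63.8 and 73.1 TPM in cKO libraries, which overlapped. In pDCs it stayed at 0.17 to 0.69 TPM, which corresponds to about 9 to 36 reads per library at the estimated depths. Its cDC1 log2 fold change of 0.45 (SE 0.20, adjusted p 0.105, limma) did not pass the test. The WT cDC1 to cDC2 difference of 0.57 (SE 0.18, adjusted p 0.0269) also missed it, and was called with FPKM (0.63, adjusted p 0.00609), with median-of-ratios scaling (0.76, adjusted p 0.00233), with quantile normalization (0.65, adjusted p 0.00852) and without WT cDC2 library 3 (0.71, adjusted p 0.00731).

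Batf3 (gene ID 381319, chromosome 1, 191098414 to 191108943), a basic leucine zipper partner of JUN proteins needed to keep cDC1s, was 226 and 176 TPM in WT and 217 and 200 TPM in cKO cDC1s. In cDC2s it was 142, 175 and 157 TPM in WT and 119, 126 and 122 TPM in cKO libraries. In pDCs it was at most 1.38 TPM. Batf3 RNA was thus abundant in both conventional subsets, with WT cDC1s 1.27 times as high as WT cDC2s (log2 difference 0.34, SE 0.12, adjusted p 0.0422, not called). The cDC1 genotypes overlapped, and the log2 fold change of 0.06 turned to −0.11 under median-of-ratios scaling. In cDC2s all 3 cKO libraries lay under all 3 WT libraries, at a log2 fold change of −0.36 (SE 0.11, 95% interval −0.61 to −0.11, adjusted p 0.0461, limma), short of both limits.

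Nfil3 (gene ID 18030, chromosome 13, 52967209 to 52982878), a basic leucine zipper repressor that acts in early cDC1 specification, varied most among libraries of 1 WT cDC group. WT cDC1 libraries had 11.9 and 70.0 TPM and cKO cDC1 libraries 8.98 and 9.70 TPM. WT cDC2 libraries had 41.8, 5.23 and 6.05 TPM and cKO cDC2 libraries 4.84, 4.91 and 6.15 TPM. In pDCs the second library was the highest of each genotype, at 19.4 TPM among WT values of 4.57 and 5.87 TPM and at 11.8 TPM among cKO values of 3.90 and 4.93 TPM. One library therefore set each WT cDC mean, and the log2 fold changes of −1.55 in cDC1s (95% interval −3.55 to 0.45, adjusted p 0.196) and −0.98 in cDC2s (−2.61 to 0.65, adjusted p 0.378, both in limma) did not pass the test. They were −0.32 (adjusted p 0.817) without WT cDC1 library 2 and −0.079 (adjusted p 0.935) without WT cDC2 library 1. Both high libraries also had the largest sum in their group of 14 immediate early genes, transcripts that rise within minutes of cell stimulation or handling: 13891 TPM in WT cDC1 library 2 beside 8299 TPM in library 1, and 29536 TPM in WT cDC2 library 1 beside 11169 and 14275 TPM in libraries 2 and 3. The sum was lower in the cKO libraries, at 5195 and 5641 TPM in cDC1s and 7507 to 8555 TPM in cDC2s. In pDCs it ranged from 5605 to 8039 TPM and was not highest in the second libraries. Its part in the Nfil3 values was not tested.

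**Figure D3:**
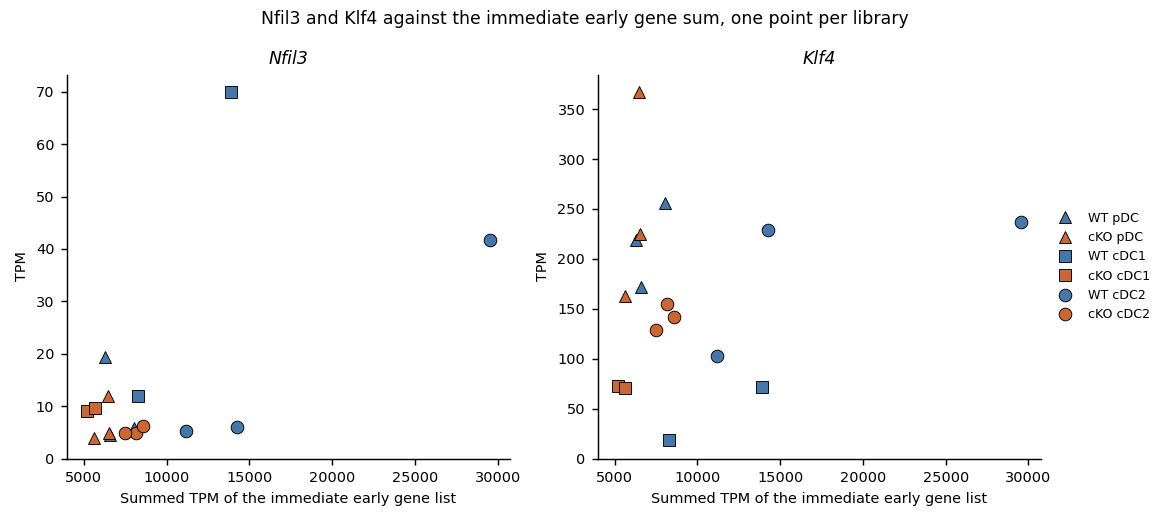
Level of Nfil3 (left) and Klf4 (right) in TPM against the summed TPM of 14 immediate early genes in each of the 16 libraries (blue WT, orange cKO; triangles pDC, squares cDC1, circles cDC2; linear axes). Nfil3 is at 70.0 and 41.8 TPM in WT cDC libraries with sums of 13891 and 29536 TPM, while another WT cDC2 library with a sum of 14275 TPM has 6.05 TPM.

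Bcl6 (gene ID 12053, chromosome 16, 23965050 to 23988866) encodes a BTB zinc finger repressor used by germinal centre B cells and follicular helper T cells and also by cDC1s. It gave the only called genotype change among the 10. In cDC2s it was 89.1, 72.6 and 80.7 TPM in WT and 52.8, 38.2 and 50.7 TPM in cKO libraries, with a gap between the groups. Its mean in cKO cDC2s was 58.5% of that in WT (log2 fold change −0.77, SE 0.14, 95% interval −1.08 to −0.46, adjusted p 0.00520, limma, n = 3 each). The call was close to its limit. It was lost in 9 of 18 alternative fits, with fold changes from −0.63 to −0.86 and adjusted p from 0.00350 to 0.0190 over all 18. They include the fits without WT cDC2 library 1 (adjusted p 0.0190), WT cDC2 library 3 (0.0103), cKO cDC2 library 2 (0.0134), cKO cDC2 library 3 (0.0168), cKO cDC1 library 1 (0.0112) and cKO cDC1 library 2 (0.0111), the fit with the replicate block (0.0111), the fit of cDC2s alone (0.0140) and the fit without a filter (0.0125).

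In cDC1s Bcl6 was at 114 and 143 TPM in WT and 95.5 and 87.0 TPM in cKO libraries. The genotypes again did not overlap, and the log2 fold change of −0.48 (SE 0.17, 95% interval −0.87 to −0.10, adjusted p 0.0487) was not called. Relative to the median gene of that contrast (0.17) it was −0.65. WT cDC1s were above WT cDC2s, with means 1.59 times apart (log2 difference 0.66, SE 0.16, adjusted p 0.00601). This call was lost in 8 of 18 alternative fits, among them the fits without WT cDC1 library 2 (0.49, adjusted p 0.0677), WT cDC2 library 2 (0.0208), WT cDC2 library 3 (0.0121), cKO cDC1 library 1 (0.0107) and cKO cDC1 library 2 (0.0106). The cDC1 and cDC2 genotype effects differed by 0.29 (95% interval −0.21 to 0.79, adjusted p 0.395). Beside these lower values stood 16 genes of mature DCs, which include Ccr7 and Il12b: their sum was 4344 and 7140 TPM in WT and 664 and 850 TPM in cKO cDC1s, and 3510 to 4897 TPM in WT and 1988 to 2635 TPM in cKO cDC2s. Of them 15 were called lower in cDC1s and 2 in cDC2s. The part of that list in the Bcl6 values was not tested. In pDCs Bcl6 was 20.1, 12.1 and 15.3 TPM in WT and 24.4, 12.01 and 15.01 TPM in cKO libraries, which overlapped (log2 fold change 0.08, adjusted p 0.889).

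Bcl6 has a pair of annotated transcript starts, and the 250 bases before each are shown because the gene carried the genotype call. Sequences are from RefSeq (GRCm38.p6), 5′ to 3′ on the minus strand, from which the gene is read, and capitals mark matches to TTCNNNGAA, letters that BCL6 and STAT proteins are known to bind.
Bcl6 start 1, chr16:23988853-23989102: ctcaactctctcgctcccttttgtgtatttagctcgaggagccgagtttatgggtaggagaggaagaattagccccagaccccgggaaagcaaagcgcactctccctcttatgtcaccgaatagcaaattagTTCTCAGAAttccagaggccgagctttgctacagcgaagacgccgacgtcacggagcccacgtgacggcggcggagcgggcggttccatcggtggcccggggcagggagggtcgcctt
Bcl6 start 2, chr16:23981284-23981533: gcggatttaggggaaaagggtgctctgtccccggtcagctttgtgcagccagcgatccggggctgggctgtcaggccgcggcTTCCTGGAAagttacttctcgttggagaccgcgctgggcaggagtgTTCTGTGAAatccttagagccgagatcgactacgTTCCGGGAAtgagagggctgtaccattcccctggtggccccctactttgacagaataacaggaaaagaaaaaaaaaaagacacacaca
Start 1 held 1 match and start 2, which lies inside the gene, held 3. Matches were searched on both strands of windows of 250 bases for 7 motifs: TTCNNNGAA, CAGGTG (the ZEB E-box), GGGNGNGG (KLF), TGANTCA (AP-1, the site of BATF3 with JUN), GTGGGAA (RBPJ), TTACGTAA (NFIL3) and GAGGAAGT (PU.1). The matches to GGGNGNGG could overlap each other. TTCNNNGAA was in 6 of 13 windows, from 4 of the 8 factors searched (Bcl6, Batf3, Bcl11a and Zeb2), and in 7.02% of all 32851 windows. Zfp366 and Zeb1 had no window among the 13. The ZEB letters were in 2 of the 13 (Rbpj and Zbtb46) and in 17.2% of all, the KLF letters in 8 and in 45.9%, and the AP-1 letters in 2 (Zbtb46 and Zeb2) and in 6.75%. The letters for RBPJ (5.42% of all windows), NFIL3 (0.113%) and PU.1 (2.44%) were in none of the 13. Some windows overlap each other or lie inside their gene, as that of Zbtb46 does, and a match shows only that the letters are present.

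Bcl11a (gene ID 14025, chromosome 11, 24076564 to 24173558), a zinc finger repressor needed for lymphoid and pDC development, was 434, 488 and 399 TPM in WT and 403, 434 and 369 TPM in cKO pDCs, the highest levels of any of the 10 factors. In cDC2s it was 175, 119 and 170 TPM in WT and 130, 101 and 118 TPM in cKO libraries. In cDC1s it was 79.2 and 96.8 TPM in WT and 86.1 and 83.6 TPM in cKO libraries. Levels thus stepped down from pDCs to cDC2s to cDC1s, and within each subset the genotypes overlapped. WT cDC1s were lower than WT cDC2s by a log2 difference of −0.80 (SE 0.17, adjusted p 0.00354 in limma). This call was lost in 4 of 18 alternative fits. Among them were those without WT cDC1 library 1 (−0.65) and without WT cDC2 library 1 (−0.70, adjusted p 0.0110). The genotype effect was −0.40 in cDC2s (95% interval −0.74 to −0.05, adjusted p 0.0993), −0.04 in cDC1s (−0.47 to 0.38) and −0.13 in pDCs (−0.34 to 0.08).

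Klf4 (gene ID 16600, chromosome 4, 55527137 to 55532475) encodes a Krüppel-like factor needed for a fraction of cDC2s and for monocyte differentiation. WT cDC2 libraries had 237, 103 and 229 TPM and cKO cDC2 libraries 154, 129 and 142 TPM. WT cDC1 libraries had 19.0 and 71.8 TPM, and both cKO cDC1 libraries, at 72.4 and 70.7 TPM, matched the higher of them. In pDCs Klf4 was 171, 218 and 256 TPM in WT and 163, 367 and 225 TPM in cKO libraries. Genotypes overlapped in all 3 subsets. The WT cDC1 library with more Klf4 was the one with the higher immediate early sum (13891 TPM), while the cKO cDC1 libraries had like Klf4 levels at sums of 5195 and 5641 TPM. WT cDC2s were above WT cDC1s, with means 4.18 times apart (log2 difference −2.23, SE 0.48, adjusted p 0.00331 in limma). This call was lost in 5 of 18 alternative fits. Among them were those without WT cDC1 library 1 (−1.29), without WT cDC2 library 1 (−2.02, adjusted p 0.0106), without a filter and with the replicate block. The cDC1 genotype effect of 0.92 (95% interval −0.24 to 2.09, adjusted p 0.188, limma) turned on 1 WT library: it was 1.86 without WT cDC1 library 2 (adjusted p 0.00939) and −0.0064 without WT cDC1 library 1 (adjusted p 0.992). Each of these fits leaves 1 WT cDC1 library, which is assumed to vary like the other groups, so neither is a test within cDC1s, and the same holds for the other fits given here without a cDC1 library.

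Zeb1 and Zeb2 are related zinc finger homeodomain repressors that bind E-boxes, and they had unlike patterns. Zeb1 (gene ID 21417, chromosome 18, 5591327 to 5775468) was 20.3 and 24.7 TPM in WT and 27.0 and 23.6 TPM in cKO cDC1s. It was 27.4, 25.3 and 27.1 TPM in WT and 20.0, 19.0 and 18.5 TPM in cKO cDC2s, where no cKO library reached the WT range. The cDC2 log2 fold change of −0.45 (SE 0.10, 95% interval −0.67 to −0.23, adjusted p 0.0118, limma) missed both limits of a call. Its effect in cDC1s was 0.16 (adjusted p 0.316), or −0.0039 under median-of-ratios scaling, and the difference between the 2 effects, 0.61 (SE 0.16, 95% interval 0.26 to 0.97, adjusted p 0.0362), was the smallest p among the factors for that contrast and was not called. In pDCs Zeb1 was 10.7 to 14.5 TPM, with overlap.

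Zeb2 (gene ID 24136, chromosome 2, 44983512 to 45117442) had the largest difference between cDC1s and cDC2s of the 10. It was 64.7, 73.4 and 66.5 TPM in WT and 65.8, 62.0 and 49.2 TPM in cKO pDCs, and 29.8, 27.7 and 24.1 TPM in WT and 28.8, 21.4 and 27.6 TPM in cKO cDC2s. In cDC1s it was 0.70 and 1.61 TPM in WT and 2.36 and 2.30 TPM in cKO libraries, about 65 to 216 reads per library. No cDC1 library came near any pDC or cDC2 library. The WT means of cDC2s and cDC1s were 23.6 times apart (log2 difference −3.74, SE 0.19, adjusted p 1.47e-07), and this call was kept in all 18 alternative fits. Both cKO cDC1 libraries lay above both WT libraries, at a log2 fold change of 0.66 (SE 0.21, 95% interval 0.19 to 1.13, adjusted p 0.0303, limma), which was not called. Without WT cDC1 library 2 it was 0.97 (adjusted p 0.00718), with the lone WT library assumed to vary like the other groups. Beside it, 7 of 12 cDC2 marker genes were called in cKO cDC1s (58.3%, beside 22.4% of all genes). Called higher were Itgam (1.65 to 10.4 TPM), Clec10a (1.60 to 7.59 TPM), Cx3cr1 (2.72 to 7.97 TPM) and Csf1r. Called lower were Esam (11.3 to 1.475 TPM), Cd4 (12.6 to 2.65 TPM) and Ltb (38.7 to 22.1 TPM). All of them but Ltb were called in the same direction in cKO cDC2s, and Itgam was called higher in cKO pDCs. The 12 cDC2 genes summed to 286 and 335 TPM in WT and 283 and 313 TPM in cKO cDC1s. That sum was mostly Clec12a, with means of 201 and 183 TPM, which was higher in WT cDC1s than in WT cDC2s. The 12 pDC genes summed to 207 and 218 TPM in WT and 354 and 356 TPM in cKO cDC1s, beside 23780 to 26478 TPM in pDCs. The part of both lists in the Zeb2 values was not tested. In pDCs and cDC2s the effects were −0.21 (95% interval −0.47 to 0.04) and −0.07 (−0.45 to 0.31).

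The 250 bases before the outermost annotated start of Zeb2 are shown because the gene had the largest difference between cDC1s and cDC2s. They are from the minus strand of GRCm38.p6 (RefSeq), and capitals mark the 1 match to the KLF letters, read on the opposite strand.
Zeb2 start 1, chr2:45117443-45117692: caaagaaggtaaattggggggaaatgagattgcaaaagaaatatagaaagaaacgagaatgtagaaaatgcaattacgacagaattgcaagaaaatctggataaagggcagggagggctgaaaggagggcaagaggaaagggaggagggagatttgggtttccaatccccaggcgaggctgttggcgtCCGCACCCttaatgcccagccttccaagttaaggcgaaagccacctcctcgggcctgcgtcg
The window had 49.6% G and C, beside a median of 52.4% over all windows. The other 3 annotated starts of Zeb2 lie inside the gene.

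Rbpj (gene ID 19664, chromosome 5, 53555779 to 53657445) encodes the DNA-binding partner of the cleaved Notch receptor. It was 128 and 143 TPM in WT and 140 and 131 TPM in cKO cDC1s, 72.4, 59.0 and 72.5 TPM in WT and 76.4, 60.8 and 70.4 TPM in cKO cDC2s, and 42.3, 37.0 and 35.0 TPM in WT and 44.2, 35.8 and 35.0 TPM in cKO pDCs. The 3 subsets did not overlap, and the genotypes overlapped in each. Genotype effects were 0.00 in cDC1s (95% interval −0.31 to 0.31, or −0.17 relative to the median gene), 0.03 in cDC2s (−0.23 to 0.28) and 0.00 in pDCs (−0.25 to 0.26), intervals that leave out changes of 0.5 or more on the log2 scale in every subset. The WT cDC1 to cDC2 difference was 0.98 (SE 0.13, 95% interval 0.70 to 1.27, adjusted p 1.17e-04), 1.99 times on the TPM scale, and was kept in all 18 alternative fits.

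**Figure D4:**
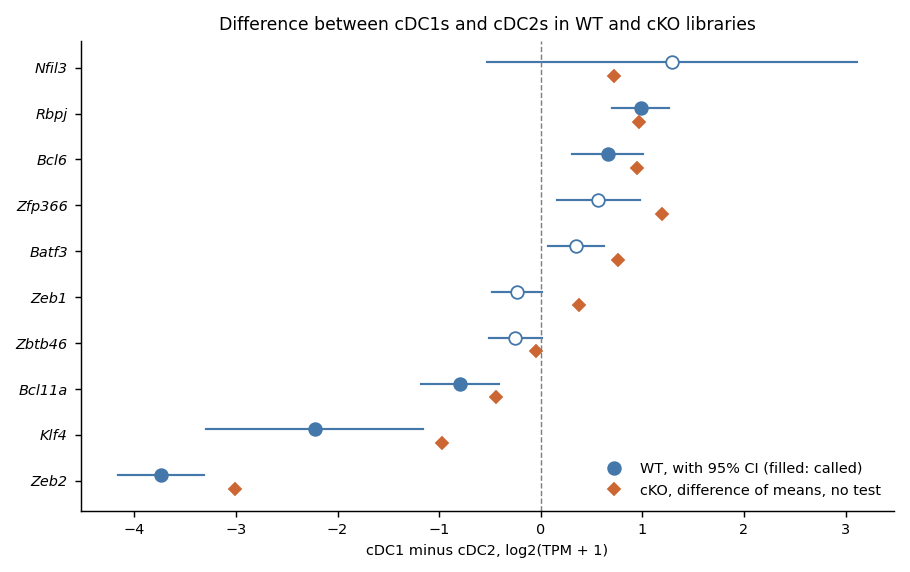
Difference between cDC1s and cDC2s in mean log2(TPM + 1) for each factor (horizontal axis), for WT libraries with the 95% confidence interval (blue; filled where called) and for cKO libraries without a test (orange). Zeb2 lies farthest to the left (−3.74 in WT, −3.01 in cKO), and Zeb1 is on opposite sides of 0 (−0.24 and 0.38).

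Without Trim33 the same comparison of cDC1s with cDC2s was made as a description. In cKO libraries the differences of mean log2(TPM + 1) were 0.96 for Rbpj, 0.95 for Bcl6, 1.196 for Zfp366, 0.76 for Batf3 and 0.72 for Nfil3 towards cDC1s, and −3.01 for Zeb2, −0.97 for Klf4 and −0.44 for Bcl11a towards cDC2s. Zbtb46 was at −0.05 with overlapping libraries. Zeb1 was at 0.38, beside −0.24 in WT cells. In cKO cells 6 factors were higher and 3 lower in cDC1s without overlap, beside 38% and 31.2% of all genes tested (69.2% together). The test of a change in this comparison, which is the same as the difference between the cDC1 and cDC2 genotype effects, called 0 of 10 factors (limma, 4 with an unadjusted p under 0.05, beside 30.7% of all genes) and 2.56% of all genes.

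Of the 34 genes tested in cDCs from 4 lists of the Notch pathway around Rbpj, 18 were called between WT cDC1s and WT cDC2s (52.9%, beside 31.7% of all genes), 7 between the genotypes in cDC1s (20.6%, beside 22.4%) and 2 in cDC2s (5.88%, beside 7.15%). The genotype shares were thus no larger than those of all genes. Notch receptors are activated by ligands on neighbouring cells, cleaved by ADAM and gamma-secretase proteases, and then join RBPJ and Mastermind-like cofactors at target genes. Of 9 receptors and ligands, 5 were tested in cDCs, and 3 were called higher and 1 lower in WT cDC1s than in WT cDC2s. The receptor Notch4 averaged 69.8 TPM in WT cDC1s and 3.32 TPM in WT cDC2s (log2 difference 4.04), the ligand Jag2 12.5 and 0.887 TPM (2.87), and the ligand Jag1 7.10 and 15.5 TPM (−1.08). The receptor Notch2, the one known to act in splenic cDC2s, averaged 57.3 and 63.1 TPM and was not called. Of 8 target genes 3 were tested, 1 was higher (Dtx4) and 1 lower in WT cDC1s, and the latter, Dtx1, averaged 298 TPM in WT cDC2s and 1.51 TPM in WT cDC1s. Among 17 receptor-processing genes 5 were higher and 4 lower in WT cDC1s, and among 9 nuclear cofactors 1 was higher (Maml2) and 2 lower (Maml3 and Maml1).

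The 7 calls in cKO cDC1s were 2 higher and 5 lower. Jag1 fell from 7.10 to 0.805 TPM (log2 fold change −2.11, SE 0.26, adjusted p 2.73e-04), Notch4 fell from 69.8 to 33.4 TPM (−1.04), and the target Hes1 fell from 37.8 to 20.3 TPM (−0.86, adjusted p 0.00930). Notch1 rose from 3.02 to 8.28 TPM (1.204), and Maml3 rose while Maml2 and the gamma-secretase subunit gene Aph1c fell. In cKO cDC2s both calls were lower: Jag1 fell from 15.5 to 4.42 TPM (−1.60) and Dtx1 from 298 to 126 TPM (−1.201, SE 0.20, adjusted p 0.00322). In cKO pDCs 0 genes of the 4 lists were called in limma, beside 1.05% of all genes. At an unadjusted p under 0.05 there were 0 of 6 receptors and ligands and 3 of 17 processing genes. Cofactors gave 2 of 9 and targets 3 of 4 tested, and the share over all genes was 20.8%. With the replicate block, which pairs the pDC libraries, 1 of the 36 was called, beside 2.96% of all genes. It was the ligand Dll4 (lower, log2 fold change −0.55, adjusted p 0.00297 in limma). The fall of Notch4 in cDC1s differed from its value in cDC2s (difference −1.34, adjusted p 0.00590). No change of Rbpj was called beside these calls in ligand, receptor and target genes. The mature DC and immediate early sums given above were lower in the same cKO libraries, and their part in these changes was not tested.

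Partner and circuit genes of the 10 factors were called between the cDC subsets in 8 of 16 cases (50%, beside 31.7% of all genes). Of them 4 were higher and 4 lower in WT cDC1s than in WT cDC2s, led by Irf8 (1737 beside 34.4 TPM), Irf4 (5.31 beside 65.1 TPM), Mycl (336 beside 70.1 TPM) and Cebpb (9.35 beside 39.9 TPM). In cKO cDC1s 3 were higher and 1 lower (25%, beside 22.4% of all genes): Myc rose from 19.6 to 85.6 TPM (log2 fold change 2.09), Tcf4, which is also one of the pDC markers, from 8.48 to 17.2 TPM (0.98) and Tcf3 by 0.51, and Junb fell from 1305 to 478 TPM (−1.41). In cKO cDC2s 1 of 16 was called (6.25%, beside 7.15%): Irf4, a factor of cDC2s, fell from 65.1 to 29.9 TPM (−1.08, SE 0.19, adjusted p 0.00400). In cKO pDCs 0 of 15 tested were called in limma, and 4 had an unadjusted p under 0.05, beside 20.8% of all genes. With the replicate block 3 of the 15 were called higher, beside 2.96% of all genes called in either direction. They were the E-protein inhibitors Id3 (1.47, adjusted p 0.00267) and Id2 (0.51, adjusted p 0.00875) and Myc (1.23, adjusted p 0.00275, all in limma). Of 14 corepressor genes, which the zinc finger repressors recruit, 1 was called higher in cKO cDC1s (Hdac2, 7.14% beside 22.4% of all genes). In cKO cDC2s 1 was called higher (Ctbp2, 7.14% beside 7.15%). For cKO pDCs 0 were called in limma, with or without the block, and 2 had an unadjusted p under 0.05, beside 20.8% of all genes. Between the WT subsets 1 was higher (Ctbp2) and 3 were lower (Bcor, Mta2 and Sin3a) in cDC1s than in cDC2s (28.6% beside 31.7%). Of 12 relatives of the factors, 7 were tested in each table. Between genotypes 0 were called in limma, and the block gave 0 in pDCs. An unadjusted p under 0.05 was found for 3 in pDCs, 2 in cDC1s and 5 in cDC2s. The shares over all genes were 20.8%, 48.6% and 34.1%. Tef, Klf13 and Dbp were called lower in WT cDC1s than in WT cDC2s (42.9% beside 31.7%).

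Across the 10 cDC libraries, the genes with the most similar profile on the log2 scale were Nudt16 for Zbtb46 (Pearson r 0.975), Ssbp3 for Zfp366 (0.992), Gas8 for Batf3 (0.945), Spty2d1 for Nfil3 (0.972), Mast4 for Bcl6 (0.985), Lmtk2 for Bcl11a (0.984), Zhx3 for Klf4 (0.973), Maoa for Zeb1 (0.964), Slc38a2 for Zeb2 (0.995) and Plxdc1 for Rbpj (0.994). The next in order were Ces2f and Dhtkd1 for Zbtb46, Zfp398 and Cyfip2 for Zfp366, Gnb4 and Col9a3 for Batf3, Tiparp and Arl5b for Nfil3, Ccser1 and Pik3cb for Bcl6, Klf13 and Usp6nl for Bcl11a, Cul3 and Prdx6 for Klf4, Mbtd1 and Cnot7 for Zeb1, Cd209a and Rgl1 for Zeb2, and Extl3 and Ttc7b for Rbpj. Among the factors themselves, Zeb2 and Rbpj ran opposite to each other (−0.946), Zfp366 and Rbpj ran together (0.912), and so did Bcl11a and Klf4 (0.861). These values share the same 10 libraries and their split into 2 subsets, and were given no test.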

How the data were processed

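RNA-seq had been done on 16 libraries grouped by their titles. The authors mapped single-end 50-base reads with Bowtie2 2.2.5 and estimated expression per gene with RSEM 1.2.12. The authors gave TPM in a pDC and a cDC table, each scaled to its own genes (17128 and 17721). They also deposited FPKM of the same libraries, which served as an alternative and for estimating depth. Which genes a table lists, and the transcript reference, are not given in the sources used here. Because these values are not counts, limma 3.58.1 in R 4.3.3 (lmFit, eBayes with trend) was run on log2(TPM + 1), a scale that understates changes of low genes, in place of the authors' count model with their thresholds.

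Genes with a mean of at least 1 TPM over the fitted libraries were tested: 11299 in pDCs (6 libraries) and 11411 in cDCs (10 libraries, 4 group means). P-values are two-sided and were adjusted by Benjamini-Hochberg over every gene tested in a contrast. A gene was called where its adjusted p did not exceed 0.01 and it differed by 0.5 or more on the log2 scale. Symbols and positions are from RefSeq for GRCm38.p6. Read numbers for low genes assume the longest GENCODE transcript. A transcript of 2000 bases with 3 reads would read 0.133 to 0.184 TPM. Such limits cover counting error only, since PCR copies were not told apart.

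The 10 factors and the lists (Notch receptors and ligands, processing, cofactors and targets, partners, corepressors, relatives and cell markers) were chosen with earlier results of these data known. For each list at most 4 called genes per contrast, those with the largest changes, were named. Notch2, Clec9a, Itgam, Clec10a, Cx3cr1, Clec12a, Ly6c2, Thy1, Dll4, Id2 and Id3 were named outside that rule, after their values were seen. So were Csf1r, Ltb, Bst2, Ccr9, Cd3d, Cd3e, Cd3g and Bcl11b. The 3 genes most like each factor were named by correlation.

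Libraries of the same number deviated together in pDCs (correlations 0.310, 0.392 and 0.206), so the numbers were taken to pair the pDC libraries. The labels do not state a pairing. The replicate block, FPKM, other scalings, a pseudocount of 0.1, no filter, other limits, separate fits and leaving out each library were the alternatives. The fits were tested on simulated data. Figures were drawn with matplotlib 3.10.9.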

Additional observations from a re-analysis of the deposited data

How the results depend on the processing

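Over the values of single factors in alternative fits, 761 kept their direction and their side of the limits, 26 lost a call, 8 gained one and 29 changed sign. In cDC1s the count of factors called was 2 without WT cDC1 replicate 2 (Klf4 and Zeb2), where the 1 WT cDC1 library left is assumed to vary like the other groups, so leaving out 1 library gave 0 to 2, and a looser limit, an adjusted p of 0.05 without regard to fold, also gave 2. In cDC2s the count of 1 became 0 without a filter, with the replicate block, in the fit of cDC2s alone and with a fold limit of 1, was 0 or 1 when 1 library was left out, and was 4, all lower, at an adjusted p of 0.05. For the difference between cDC1 and cDC2 effects the looser p gave 1, beside 11.3% of all genes. At that looser p 39.6% of all genes were called in cDC1s and 19.9% in cDC2s. Between WT cDC1s and WT cDC2s the count of 5 became 3 without a filter, 3 with the replicate block, 2 in a fit of the WT cDCs alone and 2 with a fold limit of 1, and ran from 3 to 5 when 1 library was left out. No genotype count in pDCs changed, and the block changed no other call of a factor. Over all genes, the share called between the WT subsets was 20.1% without a filter and 29.1% with the block. It was 23.1% in WT cDCs alone and 16.8% with the fold limit of 1. In cDC2s the shares were 3.31% without a filter, 4.98% with the block, 3.89% in cDC2s alone and 2.57% with that fold limit.

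Values that changed sign were small or rested on single libraries, and the cause was not tested. Under FPKM, median-of-ratios and quantile normalization Batf3 in cDC1s was −0.0068, −0.11 and −0.087, and Rbpj −0.062, −0.17 and −0.15. Zeb1 in cDC1s was −0.0039 under median-of-ratios and −0.0049 under quantile normalization, and the Zbtb46 difference was −0.025 under median-of-ratios. Leaving out 1 library at a time gave in pDCs −0.77 to 0.22 for Nfil3, −0.19 to 0.29 for Bcl6, −0.15 to 0.44 for Klf4 and −0.10 to 0.080 for Rbpj, in cDC1s −0.12 to 0.24 for Batf3, −0.19 to 0.10 for Bcl11a, −0.0064 to 1.86 for Klf4 and −0.076 to 0.083 for Rbpj, in cDC2s −0.15 to 0.056 for Zeb2 and −0.071 to 0.11 for Rbpj, and for the difference −1.80 to 0.66 for Nfil3 and −0.11 to 0.075 for Rbpj.

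Over all genes, leaving out 1 library gave 12 to 97 calls in pDCs (119 with all), 800 to 2888 in cDC1s (2555), 316 to 907 in cDC2s (816), 77 to 282 for the difference (292) and 2649 to 3575 between the WT subsets (3612). The fewest came without WT pDC library 3, cKO cDC1 library 1 (cDC1s and difference) and cKO cDC2 library 3 (cDC2s). In pDCs there were 335 calls with the replicate block, 24 without a filter and 56 without a variance trend, in cDC2s 444 when fitted alone, and for the difference 145 with the block. The looser p gave 514, 4522, 2274, 1286 and 5557 in the same order, and a fold limit of 1 gave 1000 in cDC1s, 293 in cDC2s and 1920 between the WT subsets. The share of higher calls under median-of-ratios scaling was 50% in place of 70.7% in cDC1s, 60.5% in place of 50.2% in cDC2s, 26.2% in place of 47.3% for the difference and 51.4% in place of 34.4% between the WT subsets. Quantile normalization gave 52.4% in cDC1s, 30.8% for the difference and 52.3% between the WT subsets, and FPKM 61% in cDC2s. Same-numbered libraries correlated at −0.233 in cDC1s and at −0.249, 0.253 and −0.165 in cDC2s, so there the numbers were not taken as pairs. With 2 libraries per group the cDC1 deviations mirror each other, so that value cannot decide whether they are paired. Crossing the cDC1 numbers, an alternative chosen after seeing the data, left the count of factors at 0. With 2 libraries per genotype, cDC1 intervals for Nfil3 and Klf4 span more than a log2 unit on either side.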
